A study of Mus musculus with 16 samples.

Results

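Macrophages owe their identity to a small set of transcription factors and to the receptor, surface and lysosomal genes that these factors control. Described here are 9 such genes of the 46320 in the count table, taken from it by their symbols: the transcription factors Maf, Spi1, Irf8, Cebpa and Cebpb, the M-CSF receptor gene Csf1r, and the identity genes Adgre1, Mpeg1 and Cd68. Their transcripts were counted in bulk RNA of macrophages that had been derived from the marrow of C57BL6/J mice, grown for 7 days with L929-cell medium supplying M-CSF, plated at 400000 per well and kept for 4 hours in 0.5% serum. The macrophages were then exposed for 4 hours to thrombin-activated platelets, to resting platelets, to thrombin or to PBS as the vehicle, with 4 libraries in each of the 4 groups and no genetic change in any of them. Platelets came from the blood of C57BL6/J mice. The thrombin dose is 0.1 U/mL in the labels of the thrombin libraries and 0.01 U/mL in the protocol, and the labels of the activated platelet libraries give no dose of their own.

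Spi1 encodes PU.1, the ETS factor that opens macrophage enhancers and drives Csf1r. Cebpa encodes C/EBPα, which works with PU.1 to set the myeloid lineage, and Cebpb encodes C/EBPβ, which rises in myeloid cells under inflammatory and growth signals. Irf8 encodes a partner of PU.1 that favours the monocyte lineage over the granulocyte one, and Maf encodes c-MAF, a leucine zipper factor of resident macrophages that restrains their self-renewal.

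Total counts per library were 28034884 to 30602623 with activated platelets, 24857490 to 26355697 with resting platelets, 23149061 to 26716910 with thrombin and 22555094 to 27691609 with vehicle. Values below are CPM, a gene’s counts relative to the scaled total of its library, listed for replicates 1, 2, 3 and 4 in that order. Replicate number 1 held transcripts of the Y chromosome gene Ddx3y at 85.1 to 93.2 CPM, whereas numbers 2, 3 and 4 held the female transcript Xist at 1055 to 1292 CPM. Libraries with the same number deviated together in every group, so a fit with the number as a block was set beside the fit without it. The labels do not say whether the 4 libraries of a group came from separate animals or cultures, so p-values measure the spread between these libraries. All 9 genes passed the filter on low counts that left 15610 genes to test. Together the 9 genes took 1.01 to 1.19% of all counts with activated platelets, against 1.05 to 1.23% with vehicle.

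The identity genes were among the most abundant transcripts of the macrophages. Mpeg1 ranked 10 among all genes by mean CPM in vehicle libraries and Csf1r ranked 19. Per kilobase of exon, the scale on which genes can be compared, Mpeg1 stood at 1077 ± 112 and Cd68 at 859.8 ± 55.7 with activated platelets, against 1139.6 ± 131 and 986 ± 67.8 with vehicle (CPM per kilobase, SD, n = 4). On the same scale and in vehicle libraries, these were followed by Csf1r at 662 ± 58.2, Adgre1 at 430.1 ± 38.4, Spi1 at 194 ± 14.8 and Cebpa at 94.2 ± 12.2. Maf at 65.8 ± 11.1, Irf8 at 47.9 ± 5.68 and Cebpb at 35.8 ± 3.29 were the lowest in vehicle. In that order the ranges over the 4 vehicle libraries overlapped for Mpeg1 with Cd68 and for Maf with Irf8, and for no other neighbours. With activated platelets Cebpb reached 85.0 ± 11.6 and stood above Maf at 40.4 ± 5.75 and Irf8 at 40.8 ± 5.85.

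**Figure D1:**
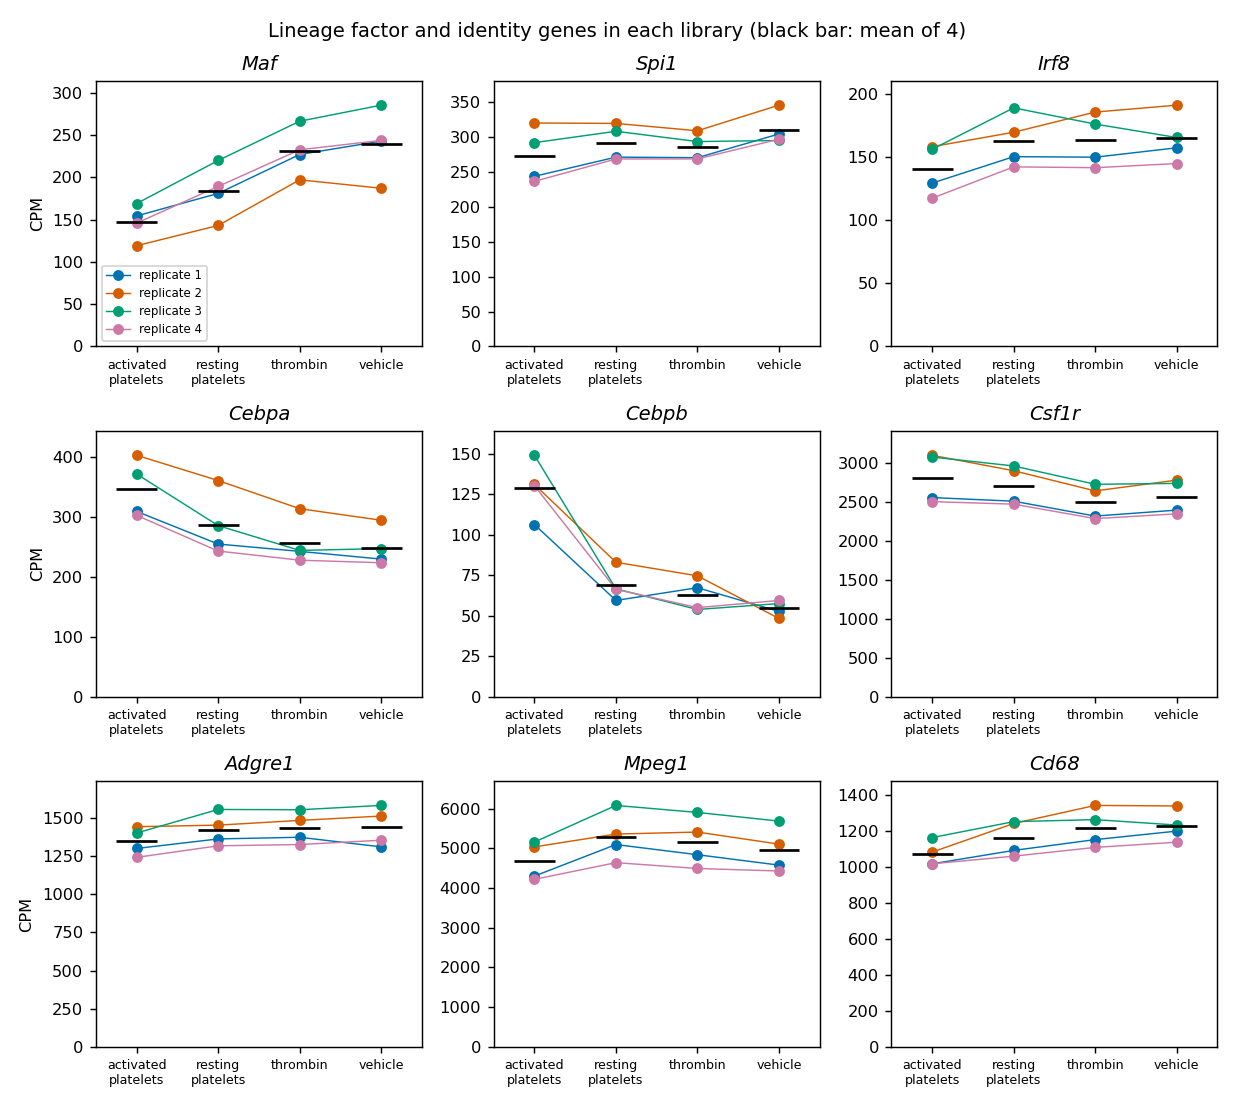
CPM of the 9 genes in each of the 16 libraries (y axes in CPM, each with its own range), with groups on the x axis, 1 point per library, lines joining libraries of 1 replicate number and a black bar at the group mean. Cebpb lies at 106 to 149 CPM with activated platelets and at 48.2 to 59.3 CPM with vehicle, whereas the points of Csf1r, Adgre1 and Mpeg1 overlap between all groups.

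Cebpa and Cebpb are the genes that rose with activated platelets in the fit without replicate numbers. The stretches just before their starts are shown beside that of Cd68, which was not called in that fit. Within the replicate block Cd68 fell with activated platelets (edgeR adjusted p = 2.69e-05), so it does not stand for an unchanged gene. The 250 bases before the transcription start are RefSeq sequence on GRCm38.p6, 5′ to 3′ on the gene's strand, from chr2:167688665-167688914 (plus strand) for Cebpb, chr7:35119043-35119292 (plus strand) for Cebpa and chr11:69666171-69666420 (minus strand) for Cd68. Capitals mark matches on either strand to 6 motifs: GAGGAA for PU.1, TTGCNNAA for C/EBP, TGACG for the CREB half-site, TGANTCA for AP-1, TGCTGA for the MAF half-site and TATAAA for the TATA box.
Cebpb: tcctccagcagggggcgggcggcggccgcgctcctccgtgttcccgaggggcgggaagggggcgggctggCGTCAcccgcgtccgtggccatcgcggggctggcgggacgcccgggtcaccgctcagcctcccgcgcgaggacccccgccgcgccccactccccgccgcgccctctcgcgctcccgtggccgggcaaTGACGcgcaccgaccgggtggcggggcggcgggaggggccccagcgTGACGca
Cebpa: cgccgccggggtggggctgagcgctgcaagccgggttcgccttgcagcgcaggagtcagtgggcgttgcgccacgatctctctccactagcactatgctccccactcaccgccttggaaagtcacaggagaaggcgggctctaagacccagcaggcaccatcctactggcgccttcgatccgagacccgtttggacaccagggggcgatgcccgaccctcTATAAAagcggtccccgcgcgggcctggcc
Cd68: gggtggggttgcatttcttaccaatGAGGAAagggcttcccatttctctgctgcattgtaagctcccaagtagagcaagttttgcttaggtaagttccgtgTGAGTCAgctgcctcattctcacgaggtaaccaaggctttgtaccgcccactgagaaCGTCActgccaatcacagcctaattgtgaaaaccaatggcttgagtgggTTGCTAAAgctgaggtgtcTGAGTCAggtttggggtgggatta

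The Cebpb window had a GC content of 81.6% and held TGACG 3 times, at positions -180, -53 and -7, where -1 is the base just before the start and a position gives the first base of a match. The Cebpa window, at 66.4% GC, held TATAAA at -30 and none of the other motifs. In the Cd68 window, at 49.2% GC, GAGGAA lay at -225, TGANTCA at -149 and -24, TGACG at -92 and TTGCNNAA at -43. Of 32851 windows of this length in the RefSeq table, 23.3% held GAGGAA, 9.6% TTGCNNAA, 17.8% TGACG, 6.7% TGANTCA, 16.1% TGCTGA and 12.4% TATAAA. A match is a description of letters and not a bound site. Promoter windows were searched for 5 of the 9 genes. Windows of the 9 genes on chromosome 18, where Csf1r lies, were left out of the search. The Mpeg1 window, at 40.0% GC, held no match, and the Irf8 windows before its 2 listed starts held TATAAA at -31 (67.2% GC) and TGCTGA at -157 (54.0% GC).

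With activated platelets, Cebpb and Cebpa rose and Maf fell, and the other 6 genes did not pass the test that ignores replicate numbers. This was 3 of 9 genes called, 2 higher and 1 lower, where 25.8% of all tested genes were called in the same comparison by edgeR's quasi-likelihood test at an adjusted p below 0.05, 12.2% higher and 13.6% lower. The share of the 9 genes was 33.3%, near that over all genes. The median log2 fold change was -0.10 over the 9 genes and -0.00397 over all genes tested. Within the replicate block all 9 genes were called, 3 higher and 6 lower, against 42.5% of all genes, 20% higher and 22.5% lower.

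Cebpb had 106, 131, 149 and 130.1 CPM with activated platelets, against 52.6, 48.2, 57.4 and 59.3 CPM with vehicle. Every library with activated platelets lay above every vehicle library, and the lowest of them was well clear of the highest vehicle value. The gene lies at chr2:167530835-167532352 on the plus strand of GRCm39, the build of the deposited coordinates, in 1518 bases of exon. Expression was 2.37-fold higher (95% interval 1.97 to 2.85, log2 fold change 1.25 ± 0.12 SE, edgeR adjusted p = 2.23e-06), and higher in 4 of 4 replicate numbers. It exceeded the change of 98.5% of the genes tested.

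Cebpa, at chr7:34818718-34821353 on the plus strand, was the other gene that rose. It had 309, 402, 371 and 302 CPM with activated platelets, against 229, 294, 247 and 223 CPM with vehicle. The groups did not overlap, although replicate 2 with vehicle, at 294 CPM, came close to replicate 4 with activated platelets, at 302 CPM. The level was 1.39-fold higher (log2 fold change 0.48 ± 0.14 SE, edgeR adjusted p = 0.0158). This call depended on single libraries, with an adjusted p of 0.0521 without replicate 2 of activated platelets, 0.0764 without replicate number 1 and 0.119 without number 3. Within the block the log2 fold change was 0.48 ± 0.036 and the adjusted p 2.5e-10, and the call was held with any number left out.

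Maf, at chr8:116429992-116433633 on the minus strand, fell. It had 154, 119, 169 and 146 CPM with activated platelets, against 243, 187, 285 and 244 CPM with vehicle. The highest library with activated platelets, replicate 3, was below the lowest vehicle library, replicate 2. The level was 1.63-fold lower (log2 fold change -0.70 ± 0.14 SE, edgeR adjusted p = 0.00164). The fall was nearly the same in each replicate number, at -0.65, -0.65, -0.76 and -0.74 on the log2 scale, and within the block its standard error was 0.033.

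Spi1, at chr2:90912750-90946104 on the plus strand, had 244, 320.1, 292 and 236 CPM with activated platelets, against 304, 346, 295 and 297 CPM with vehicle. Replicate 2 was the highest library in both groups, and the groups overlapped. The log2 fold change was -0.19 (edgeR adjusted p = 0.162), and within the block, where Spi1 fell, -0.19 with an adjusted p of 0.000477. Irf8, at chr8:121463097-121483433 on the plus strand, had 129, 158, 156 and 117 CPM with activated platelets, against 157, 191, 165 and 145 CPM with vehicle. Those groups overlapped too, while each library with activated platelets was below the vehicle library of its number. On the log2 scale the difference was -0.23 (edgeR adjusted p = 0.176) and -0.24 within the block, where Irf8 fell with an adjusted p of 4.32e-05.

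Csf1r, at chr18:61238644-61264211 on the plus strand, encodes the receptor through which M-CSF keeps macrophages alive and differentiated. It had 2557, 3101, 3078 and 2505 CPM with activated platelets, against 2396, 2781, 2739.6 and 2349 CPM with vehicle. Replicates 2 and 3 were the higher ones in both groups, which overlapped. Its log2 fold change was 0.13 (edgeR adjusted p = 0.354) and the same within the block, where Csf1r rose with an adjusted p of 0.000229. Reads of the microRNA gene Mir6983, which lies within Csf1r on the same strand, came to 0.0207% of the Csf1r counts.

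Adgre1, at chr17:57665581-57790529 on the plus strand, encodes F4/80, the surface marker of mature mouse macrophages. It had 1301, 1444, 1403 and 1243 CPM with activated platelets, against 1312, 1514, 1583 and 1355 CPM with vehicle, and the groups overlapped. Its log2 fold change was -0.10 (edgeR adjusted p = 0.4), and within the block Adgre1 fell with an adjusted p of 0.00893. Without replicate number 3, or without number 4, that block call was lost.

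Mpeg1, at chr19:12438134-12442649 on the plus strand, encodes perforin-2, a pore-forming protein that acts against engulfed bacteria. It had 4302, 5038, 5160.5 and 4219.6 CPM with activated platelets, against 4579, 5108, 5688 and 4430.3 CPM with vehicle. Replicate 4 was lowest and replicate 3 highest in both groups, and the groups overlapped widely. Its log2 fold change was -0.08 (edgeR adjusted p = 0.645), and within the block Mpeg1 fell with an adjusted p of 0.0238, a call lost without number 1, 3 or 4.

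Cd68, at chr11:69555039-69556996 on the minus strand, encodes macrosialin, a glycoprotein of late endosomes and lysosomes. It had 1019, 1085, 1165 and 1019 CPM with activated platelets, against 1201, 1342, 1235 and 1139.6 CPM with vehicle. Replicate 3 with activated platelets was the only library of that group above the lowest vehicle library. The log2 fold change was -0.20 ± 0.077 SE (edgeR adjusted p = 0.0708), and within the block Cd68 fell with an adjusted p of 2.69e-05 that stayed below 0.05 with any number left out.

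**Figure D2:**
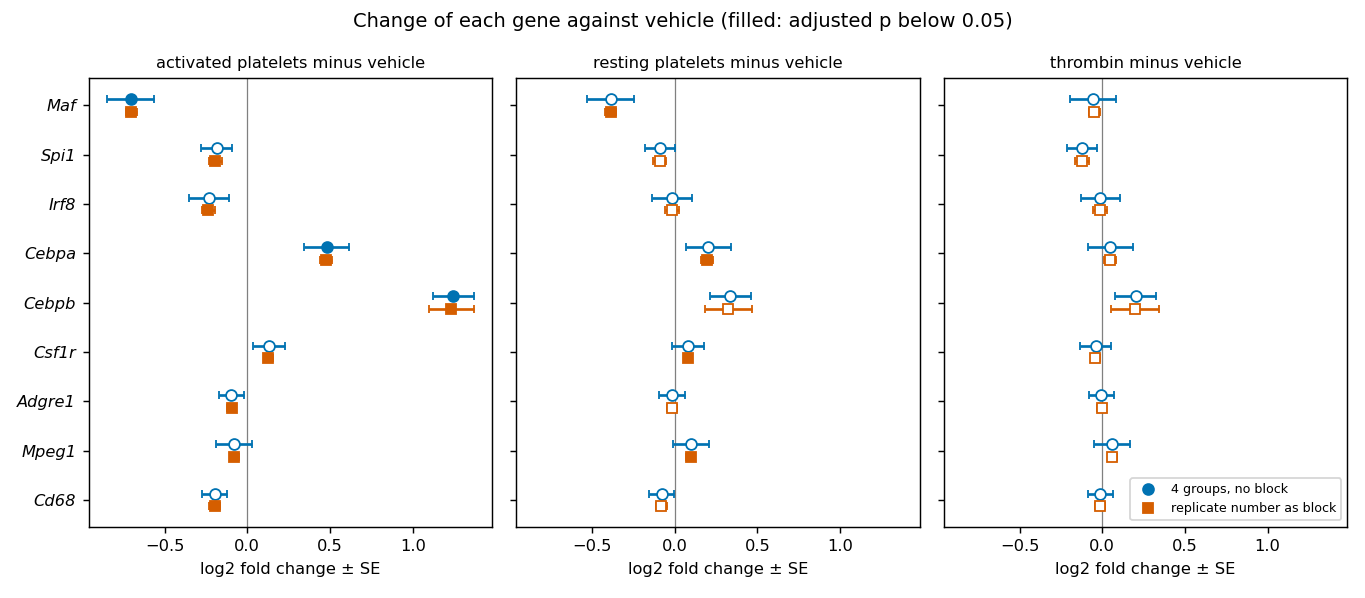
Log2 fold change (x axis) of the 9 genes (y axis) with activated platelets, resting platelets and thrombin minus vehicle, as circles without and squares with the replicate block, with bars for 1 SE and filled symbols at an adjusted p below 0.05. Cebpb, Cebpa and Maf have filled circles with activated platelets, at 1.25, 0.48 and -0.70, and no circle is filled with resting platelets or thrombin.

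With resting platelets none of the 9 genes passed the test against the same vehicle libraries, where 3.39% of all genes were called, 2.07% higher and 1.32% lower. At an unadjusted p below 0.05, edgeR gave Cebpb higher and Maf lower, and DESeq2 called 0. The share of all genes at that unadjusted threshold was not counted, so these genes have no background there. Cebpb had 59.3, 82.9, 66.5 and 66.2 CPM with resting platelets, against 52.6, 48.2, 57.4 and 59.3 CPM with vehicle. Replicate 1 with resting platelets and replicate 4 with vehicle were equal to 3 digits, and replicate 2 stood farthest apart. The log2 fold change was 0.34 ± 0.12 SE (edgeR adjusted p = 0.146, and 0.147 within the block). With values corrected for GC content it was 0.51 with an adjusted p of 0.0468.

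Maf had 181, 143, 219.9 and 189 CPM with resting platelets, against 243, 187, 285 and 244 CPM with vehicle. Within each number the library with resting platelets was the lower one, by 0.36 to 0.42 on the log2 scale, although the groups overlapped. The log2 fold change was -0.39 ± 0.14 SE (edgeR adjusted p = 0.142), and within the block Maf fell with an adjusted p of 3.76e-08. The block called 4 of the 9 genes with resting platelets, 3 higher and 1 lower, against 21.5% of all genes, 10.9% higher and 10.6% lower. Besides Maf these were Cebpa, Csf1r and Mpeg1, which rose within the block.

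Cebpa had 254, 360.2, 285 and 243 CPM with resting platelets, against 229, 294, 247 and 223 CPM with vehicle, a log2 fold change of 0.20 (edgeR adjusted p = 0.457, and 0.000637 within the block). Csf1r had 2511, 2902, 2964 and 2473 CPM with resting platelets, against 2396, 2781, 2739.6 and 2349 CPM with vehicle, and its log2 fold change of 0.08 had an adjusted p of 0.0275 within the block. Leaving out any 1 number ended that call. Mpeg1 had 5097, 5361, 6084 and 4641 CPM with resting platelets, the highest mean of the 4 groups, against 4579, 5108, 5688 and 4430.3 CPM with vehicle. Its log2 fold change was 0.10, with an adjusted p of 0.0149 within the block that was lost when some numbers were left out.

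The remaining 4 genes overlapped their vehicle values with resting platelets and were called in neither fit. Spi1 had 271, 319.5, 308 and 269 CPM, with replicates 1, 2 and 4 below vehicle and replicate 3 above it. Irf8 had 150.1, 169, 189 and 142 CPM, and Adgre1 1364, 1454, 1557 and 1319 CPM. Cd68 had 1094, 1244, 1254 and 1062 CPM and a log2 fold change of -0.08 (edgeR adjusted p = 0.64, and 0.0767 within the block). Like Spi1, Cd68 was above its vehicle library in replicate 3 and below it in the others.

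Thrombin alone changed none of the 9 genes at an adjusted p below 0.05, where 0.288% of all genes were called, 0.0897% higher and 0.199% lower. The counts of members were 0 at an unadjusted p below 0.05 in edgeR, 0 in DESeq2 and 0 within the block, which called 8.23% of all genes, 3.91% higher and 4.32% lower. Maf had 227, 197, 266 and 233 CPM with thrombin, against 243, 187, 285 and 244 CPM with vehicle. Cebpa had 242, 313, 244 and 227 CPM with thrombin, against 229, 294, 247 and 223 CPM with vehicle. Each thrombin library of these genes lay close to the vehicle library of its number. Corrected for GC content within the block, the log2 fold change of Cebpa was 0.18 with an adjusted p of 0.0148. Cebpb had 67.2, 74.5, 53.8 and 54.9 CPM with thrombin, higher than vehicle in numbers 1 and 2 and lower in numbers 3 and 4, and its log2 fold change was 0.20 (edgeR adjusted p = 0.586).

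The receptor, the identity genes, Spi1 and Irf8 overlapped their vehicle values with thrombin. Csf1r, below vehicle in each number, had 2319.7, 2643, 2728 and 2287 CPM, and its fold of 0.972 had a 95% interval that held 1. Spi1 had 270.4, 309, 294 and 269 CPM, Irf8 149.7, 185, 176 and 141 CPM, and Adgre1 1375, 1485, 1555 and 1327 CPM. Mpeg1 had 4841, 5412, 5907 and 4494 CPM, and Cd68 1154, 1345, 1265 and 1111 CPM. The intervals of fold for these 5 genes began no lower than 0.802 and ended no higher than 1.22.

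Activated platelets were also set against the other treatments directly. Against thrombin, 3 of 9 genes were called where 25.4% of all genes were, 11.9% higher and 13.5% lower. Cebpb rose 2.06-fold (log2 fold change 1.04 ± 0.12 SE, edgeR adjusted p = 1.26e-05), Cebpa rose 1.35-fold (adjusted p = 0.0285) and Maf fell 1.57-fold (adjusted p = 0.00302). The Cebpa libraries overlapped, since replicate 4 with activated platelets at 302 CPM was below replicate 2 with thrombin at 313 CPM. The Cebpa call was lost with GC correction (adjusted p = 0.0509) and with no filter on low counts (adjusted p = 0.0771). It was also lost without activated platelet replicate 2 or 3, without thrombin replicate 1, 3 or 4, and without number 1, 3 or 4, with an adjusted p of at most 0.197. Within the block 8 of 9 genes were called, 3 higher and 5 lower, against 41.6% of all genes (19.6% higher and 22% lower), and Spi1 was the one not called (adjusted p = 0.175).

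Against resting platelets, Cebpb was the 1 gene of the 9 called, where 15.8% of all genes were, 7.34% higher and 8.49% lower. It rose 1.88-fold (log2 fold change 0.91 ± 0.12 SE, edgeR adjusted p = 0.000116), and its groups did not overlap. Within the block 7 of 9 genes were called, 2 higher and 5 lower, against 34.5% of all genes, 15.9% higher and 18.6% lower. Cebpa rose there by 0.28 on the log2 scale (adjusted p = 1.76e-06), while Maf fell by 0.31 (adjusted p = 1.3e-07), Irf8 fell by 0.22 (adjusted p = 0.000167) and Mpeg1 fell by 0.18 (adjusted p = 2.69e-05). Cd68 and Adgre1 fell as well (adjusted p = 0.00727 and 0.0352), with the Cd68 call lost without number 2 and the Adgre1 call without number 1, 3 or 4, and Spi1 and Csf1r were not called (adjusted p = 0.0572 and 0.141).

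The interaction asked whether activated platelets differed from what resting platelets and thrombin gave together, added on the log2 scale. It was called for 1 of 9 genes, Cebpb, where 9.93% of all genes were called, 4.56% higher and 5.37% lower. Cebpb was 0.71 ± 0.17 SE above the sum (edgeR adjusted p = 0.0178), with values of 0.48, 0.03, 1.26 and 1.09 in numbers 1 to 4. Number 2 was close to 0 while numbers 3 and 4 were above 1. The call was lost without number 1 (adjusted p = 0.0724), without number 3 (0.166), without number 4 (0.144), with no filter on low counts (0.057) and with GC correction (log2 difference 0.49, adjusted p = 0.121). Within the block 5 of 9 genes were called, against 29.1% of all genes (13.1% higher and 15.9% lower), with Maf at -0.26, Irf8 at -0.20, Mpeg1 at -0.24, Cebpa at 0.24 and Cebpb at 0.71. Because the thrombin dose is uncertain, the interaction and the comparison with thrombin assume 1 dose in both thrombin groups.

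GC content moved with the fold changes and is highest in the genes that rose. The longest GENCODE transcript of Cebpb has 67.15% GC, above 99.84% of the genes, and that of Cebpa 62.6%, above 98.8%. Across genes, Spearman's rho of log2 fold change with GC content was -0.051 with activated platelets, -0.34 with resting platelets and -0.443 with thrombin, each against vehicle. It was 0.382 for the interaction, and genes are not independent replicates. With GC correction and no block, the log2 fold change with activated platelets was 1.38 for Cebpb and 0.57 for Cebpa, both still called and larger than without the correction. The interaction of Cebpa within the block was 0.05 with GC correction (adjusted p = 0.61), against 0.24 without it.

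Ratios between genes within a library do not depend on library scaling. Maf, Cebpa and Cebpb are the genes called with activated platelets in these same libraries. Their ratios therefore describe those changes again and are not a separate test. How many other gene pairs separate the groups in this way was not counted. Per kilobase, the ratio of Cebpa to Cebpb was 1.34 to 1.77 with activated platelets, 2.11 to 2.5 with resting platelets, 2.07 to 2.61 with thrombin and 2.17 to 3.51 with vehicle. All 4 libraries with activated platelets lay below the 12 others. The ratio of Maf to Cebpb was 0.379 to 0.606 with activated platelets, 0.719 to 1.38 with resting platelets, 1.1 to 2.06 with thrombin and 1.62 to 2.07 with vehicle. Here too the libraries with activated platelets lay below all others, and those with resting platelets lay below the vehicle libraries. The thrombin and vehicle libraries overlapped in both ratios.

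**Figure D3:**
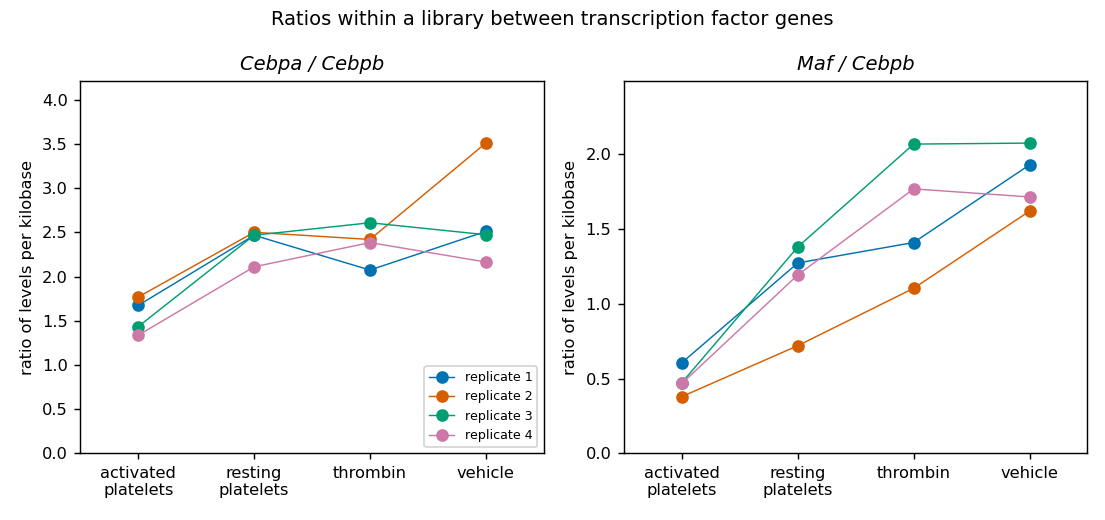
Ratios per kilobase of Cebpa to Cebpb and of Maf to Cebpb (y axes, no unit) in each of the 16 libraries, by group on the x axis, with 1 point per library and lines joining libraries of 1 replicate number. The Cebpa to Cebpb ratio is 1.34 to 1.77 with activated platelets and 2.17 to 3.51 with vehicle, and the Maf to Cebpb ratio 0.379 to 0.606 and 1.62 to 2.07 in the same groups.

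The 9 genes differed in how much of their variation over the 16 libraries followed the treatment. The treatment group held 88.8% of the sum of squares of log2 CPM for Cebpb, 67.4% for Maf and 50.8% for Cebpa, and the replicate number 2.05%, 31.5% and 46.2% for the same genes. For Csf1r, Adgre1 and Mpeg1 the number held 75.8%, 79.1% and 78.8%, more than the group did. Irf8, Spi1 and Cd68 also varied more with the number, at 66.2%, 61.4% and 51.5%. Over all genes tested the medians were 36.5% for the group and 27.0% for the number. Averaged over groups, replicate 4 was the lowest number for Spi1, Irf8, Cebpa, Csf1r, Adgre1, Mpeg1 and Cd68, and for Maf number 2 was the lowest and number 3 the highest. Replicate 1, with male transcripts, was the lowest number for Cebpb and neither the highest nor the lowest for the other 8 genes.

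**Figure D4:**
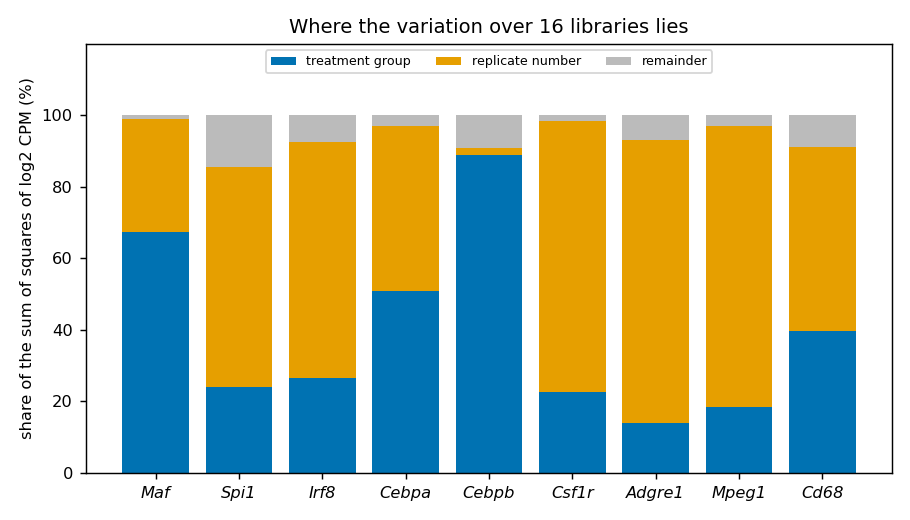
Share of the sum of squares of log2 CPM over 16 libraries (y axis, percent) that lies between treatment groups, between replicate numbers and in the remainder, 1 stacked bar per gene. Cebpb has 88.8% between groups and 2.05% between numbers, and Adgre1 14.1% and 79.1%.

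After the mean of each replicate number was removed, likeness to each gene was ranked over the 16 libraries among 9180 genes, as Pearson's r of log2 CPM. These values are descriptions, since all points share 4 groups and their libraries. Cebpa and Cebpb were alike (r = 0.966), and Cebpa was among the 3 genes most like Cebpb, with Fam120b (0.968) and Slc7a11 (0.966). Cebpa itself was followed most closely by Trp53inp2 and Smad7 (both 0.986) and Smn1 (0.981). For Maf the nearest were Nfatc2 (0.994), Aldh9a1 (0.990) and Mknk1 (0.990), and the most opposite was Cav2 (-0.992). Maf ran against Cebpa (-0.957), Csf1r (-0.925) and Cebpb (-0.884) and with Cd68 (0.886).

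Among the other genes, Irf8 was most like Tfeb (0.946), Ngly1 (0.938) and Mamdc2 (0.933), and Spi1 most like Arap1 (0.943), Zfp217 (0.922) and Plxnd1 (0.910). Csf1r was most like Myh9 (0.975), Ncf1 (0.969) and Pald1 (0.966). Cd68 was most like Plin3 (0.979), Rubcn (0.978) and Pnpla2 (0.974), and most opposite to Nlrp3 (-0.971). Adgre1 was most like Isoc1 (0.917) and Mpeg1 most like Rb1cc1 (0.950), the lowest leading values of the 9 together with Spi1 and Irf8.

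Related genes were called with activated platelets in both directions. Of 32 other myeloid transcription factors tested, 6 rose and 10 fell, 50% called where 25.8% of all genes were, with a median log2 fold change of -0.10 against -0.00397 over all genes. Bhlhe40, a helix-loop-helix repressor of macrophages, had 62.3 ± 8.06 CPM with activated platelets and 28.2 ± 4.83 CPM with vehicle (log2 fold change 1.15, edgeR adjusted p = 7.93e-06). Maff, a small MAF protein, and Etv6, an ETS repressor, rose 1.75-fold and 1.35-fold (adjusted p = 0.00308 and 0.00137). The quiescence factor Klf2 had 4.10 ± 0.812 CPM with activated platelets and 8.15 ± 1.6 CPM with vehicle (log2 fold change -0.99, adjusted p = 0.000314). Tfeb and Tfec, factors of lysosomal and macrophage genes, fell 1.54-fold and 1.35-fold (adjusted p = 0.00103 and 0.00134), and the ETS factor Elf1 fell 1.22-fold (adjusted p = 0.000389). Batf3, a factor of dendritic cells with too few counts for the naming rule and picked after its values were seen, had a log2 fold change of -2.29 (adjusted p = 3.22e-06). Within the block 8 of the 32 factors rose and 14 fell, where 42.5% of all genes were called, 20% higher and 22.5% lower.

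Of the 21 genes of the M-CSF and GM-CSF receptor axis, 5 rose and 5 fell with activated platelets, at a median of 0.0101. This was 47.6% called, against 25.8% of all genes. Within the block 7 of the axis genes rose and 9 fell, where 42.5% of all genes were called, 20% higher and 22.5% lower. Fgr, a SRC family kinase, had 16.7 ± 1.54 CPM with activated platelets and 9.64 ± 0.832 CPM with vehicle (log2 fold change 0.79, edgeR adjusted p = 1.77e-05). Inpp5d, the SHIP-1 phosphatase, rose 1.30-fold (adjusted p = 0.000107). Csf2rb and Csf2rb2, receptor chains of near-identical sequence whose reads may be split uncertainly, rose 1.72-fold and 1.71-fold (adjusted p = 0.00167 and 0.00168). Ptpn6, the SHP-1 phosphatase, fell to 181 ± 5.77 CPM with activated platelets, against 289 ± 7.02 CPM with vehicle (log2 fold change -0.67, adjusted p = 3.18e-08). The kinase gene Pik3cd and the signalling inhibitors Spred1 and Dok2 fell 1.33-fold, 1.52-fold and 1.23-fold (adjusted p = 6.43e-05, 0.00115 and 0.0276). The Dok2 call was lost in 8 of its alternatives, with an adjusted p of up to 0.142. Csf1, the gene of M-CSF itself, was named after its values were seen and was higher by 0.81 on the log2 scale (adjusted p = 0.0089).

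Of 39 other macrophage identity genes, 4 rose and 4 fell with activated platelets, 20.5% called against 25.8% of all genes, and 13 rose and 14 fell within the block, where 42.5% of all genes were called. Cd14, the co-receptor for lipopolysaccharide, had 701 ± 10.7 CPM with activated platelets and 214 ± 18.9 CPM with vehicle (log2 fold change 1.71 ± 0.059 SE, edgeR adjusted p = 2.9e-11). The fractalkine receptor Cx3cr1 rose 1.90-fold (adjusted p = 0.00127), and the Fc receptors Fcgr1 and Fcgr3 rose 1.30-fold and 1.36-fold (adjusted p = 2.07e-05 and 0.00974). The Fcgr3 call was lost in 2 alternatives, with an edgeR adjusted p of up to 0.077. Sirpa, the inhibitory receptor for CD47, fell to 1559 ± 118 CPM with activated platelets, against 2698 ± 143 CPM with vehicle (log2 fold change -0.79, adjusted p = 3.24e-07). The mannose receptor Mrc1, the efferocytosis receptor Mertk and the glucan receptor Clec7a fell 1.48-fold, 1.34-fold and 1.42-fold (adjusted p = 0.0334, 0.0338 and 0.0379). Each of these 3 calls was lost in 9 alternatives, with an adjusted p of up to 0.16 for Mrc1, 0.133 for Mertk and 0.137 for Clec7a.

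**Figure D5:**
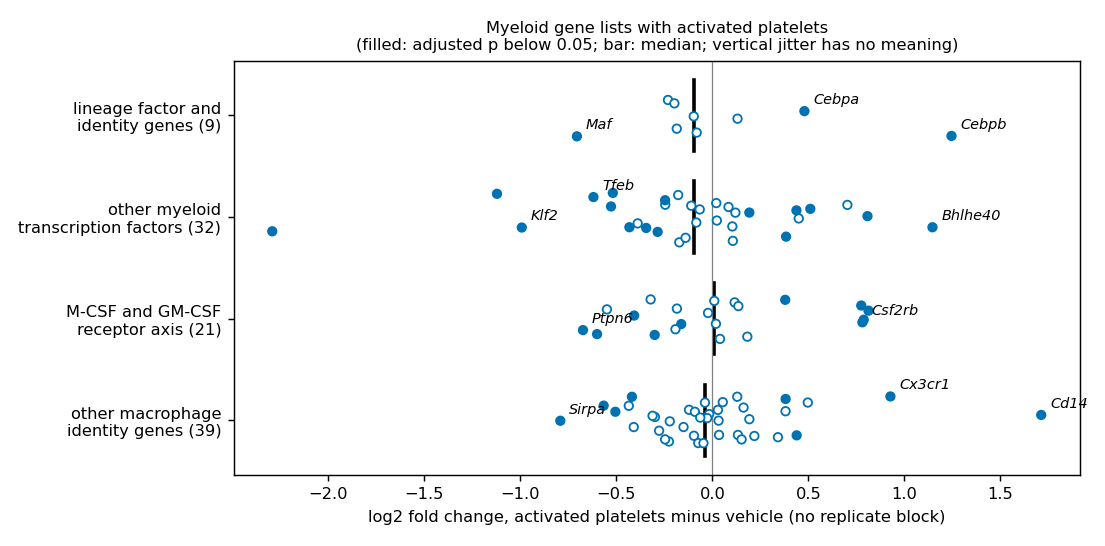
Log2 fold change with activated platelets minus vehicle (x axis) of the 9 genes and of the 3 lists of related genes (y axis, number tested in brackets), 1 point per gene, filled at an adjusted p below 0.05, with a bar at the median. Cd14 at 1.71 and Cebpb at 1.25 lie far to the right, and the medians lie between -0.10 and 0.0101. Sirpa at -0.79 and Maf at -0.70 lie to the left, though Klf2 at -0.99 and Batf3 lie farther left.

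With resting platelets, 2 of the 32 other transcription factors rose and 1 fell, against 7 and 6 within the block, where 3.39% and 21.5% of all genes were called without and with it. Bhlhe40 had 44.2 ± 5.43 CPM with resting platelets and 28.2 ± 4.83 CPM with vehicle (edgeR adjusted p = 0.0127), and Runx1, a factor of blood stem and myeloid cells, rose 1.17-fold (adjusted p = 0.0412). The Runx1 call was lost with any one of the compared libraries, or any number, left out (adjusted p of at least 0.0522), and that of Bhlhe40 in 2 alternatives (up to 0.176). The one that fell was Batf3, at a log2 difference of -0.80 (adjusted p = 0.0477). Of the receptor axis 0 rose and 2 fell (5 and 4 within the block), Ptpn6 by 1.18-fold (adjusted p = 0.0105) and Pik3cd by 1.18-fold (adjusted p = 0.0304). The Pik3cd call was lost in 11 alternatives (adjusted p up to 0.203) and the Ptpn6 call in 4 (up to 0.178). Of the other identity genes 2 rose and 0 fell, against 6 and 5 within the block. Cx3cr1 had 173 ± 23.3 CPM with resting platelets and 90.5 ± 19.3 CPM with vehicle (adjusted p = 0.0111), and Cd14 rose 1.2-fold (adjusted p = 0.025). The Cd14 call was lost in 9 alternatives (adjusted p up to 0.165) and the Cx3cr1 call in 3 (up to 0.164). With thrombin, 0.288% of all genes were called without the block, and Cd14 was the 1 gene of the 3 lists called. It fell 1.23-fold (edgeR adjusted p = 0.0447), a call lost with any library or number left out (adjusted p of at least 0.0717). edgeR called 0 of the transcription factors with thrombin, where an unadjusted p below 0.05 gave 4 higher and 2 lower and DESeq2 called 0. Of the receptor axis edgeR and DESeq2 also called 0, and an unadjusted p below 0.05 gave 0 higher and 2 lower. The share of all genes at that unadjusted threshold was not counted. Within the block thrombin gave 4 higher and 3 lower transcription factors, 0 and 3 genes of the axis, and 3 and 4 other identity genes. Over all genes the block called 8.23% with thrombin, 3.91% higher and 4.32% lower.

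Markers of other cells were counted beside these results. The 20 platelet and megakaryocyte markers summed to 0.0256 to 0.0356% of counts with activated platelets, 0.0121 to 0.0164% with resting platelets, 0.0115 to 0.0157% with thrombin and 0.00949 to 0.0157% with vehicle. Vwf was the most abundant of them over all libraries. Of the 18 tested, 15 rose and 1, Rgs18, fell with activated platelets, where 25.8% of all genes were called. With resting platelets 8 rose, where 3.39% of all genes were called. The median log2 fold changes of the tested markers were 2.94 with activated platelets and 0.88 with resting platelets. Gp9 was at 0 in all thrombin and vehicle libraries, and Gata1 in all libraries with resting platelets. Erythroid markers averaged 0.00115% with activated platelets and 0.000169% with vehicle, and neutrophil markers 0.0133% and 0.00995%. Only 3 of the 10 erythroid markers were tested, and 2 rose and 1 fell with activated platelets, against 25.8% of all genes called. Lymphocyte markers averaged 0.000596% with activated platelets and 0.00213% with vehicle. Ighm was the most abundant of these 10 genes, of which only 2 were tested. With activated platelets 1 of them fell, and within the block 1 rose and 1 fell, where 25.8% and 42.5% of all genes were called without and with it. The part of these cells in the results was not tested, and in bulk RNA a change in the number of cells and a change in RNA per cell cannot be told apart. Monocyte markers averaged 0.0108% and 0.0110%, dendritic cell markers 0.0132% and 0.0134%, and stromal markers 0.408% and 0.463% in the same groups.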

How the data were processed

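Polyadenylated RNA of 16 libraries had been sequenced from a strand-preserving kit, per the labels' protocols. The values were estimated counts for each gene, which the authors deposited without normalization, with gene length as the combined exon length that the authors deposited. The tools named without role or order, per the submitters' processing notes, were STAR 2.7.2b, featureCounts 1.6.4 of Subread and cutadapt 2.5, with GRCm39 and mm10 as builds. Strand and multi-mapping settings were not given in the sources used here. Of the values above 0, 25.5% were not whole, although whole counts had been assumed for the design. Rounding them altered 0.00734% of the summed counts. Every column used belonged to a library of the series.

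Groups were taken from the library titles. Genes were filtered with filterByExpr by group, scaled by TMM and tested by edgeR 4.0.16 (R 4.3.3) with its robust quasi-likelihood fit on all 16 libraries, with no block. The 6 comparisons were each treatment with vehicle, activated platelets with thrombin and with resting platelets, and the interaction. Two-sided p-values were adjusted by Benjamini-Hochberg over all 15610 genes, with 0.05 as the threshold. "Rose" and "fell" are used only past that threshold. Comparisons with vehicle share its 4 libraries. Log2 CPM used a prior count of 2.

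Replicate numbers pair the libraries. Deviations from group means correlated at 0.29 to 0.617 in the 24 same-number pairs and at -0.436 to 0.253 in other pairs, and the best correlation was with the same number for 16 of 16 libraries. What a number marks is not in the labels.

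Alternatives were the replicate block, RLE scaling, DESeq2 1.42.0, no filter on low counts, only the groups compared, GC correction per library from GENCODE transcripts (lowess span 0.3, GC known for 93.4% of genes tested), GC correction with the block, and each library or number left out. The block with each number left out was added after seeing the data. The edgeR fit without the block was run on simulated data. Those data gave every gene the same spread and held no difference between replicate numbers. They therefore cannot show how the fits behave with the pairing seen here. All 9 genes were named whatever their values. Of each related list, up to 4 rising and 4 falling called genes with the smallest p and at least 5 CPM in the higher group were named, and for each gene the 3 most alike and the 1 most opposite gene of at least 10 CPM were ranked. Some genes that the rule would name are not reported here. The 9 genes and all lists were chosen with earlier results of these data known. Counts cover precision between libraries only, and depth was ample for all 9 genes. Promoter sequences were RefSeq's on GRCm38.p6.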

Additional observations from a re-analysis of the deposited data

Results flagged for a closer look

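The difference between activated platelets and the sum of resting platelets and thrombin was tested as the interaction on the log2 scale. It was called for 1 of the 9 genes without the replicate block and for 5 within it. Over all genes tested, 9.93% were called without the block and 29.1% within it. Cebpb was 0.71 above the sum without the replicate block (0.706375, edgeR adjusted p = 0.0178) and within it (0.714641, adjusted p = 0.0229). Cebpa was 0.24 above the sum within the block (0.238105, adjusted p = 0.00125) and was not called without it (adjusted p = 0.508). Maf was below the sum within the block, at -0.26 (-0.264577, adjusted p = 0.000171), and not called without it (adjusted p = 0.461). Irf8 was below the sum within the block, at -0.20 (-0.20369, adjusted p = 0.00894), and Mpeg1 at -0.24 (-0.236798, adjusted p = 8.46e-05). With GC correction and the block, Cebpb was at 0.50 and no longer called (adjusted p = 0.106). With the block kept and no GC correction, Cebpb lost its call without number 1, 3 or 4 and Irf8 without number 4. Over the 36 combinations of gene and group, no library stood apart from the other 3 by Dixon's criterion.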

How the results depend on the processing

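Leaving aside the replicate block and GC content, the direction of Maf, Cebpa and Cebpb with activated platelets, and their calls against vehicle, held under RLE scaling, DESeq2, no filter on low counts and a fit of only the groups compared. Among the 9 genes the replicate block called 9 with activated platelets minus vehicle (9 with GC correction too), 4 with resting platelets (4, and 1 with GC correction alone), 0 with thrombin (1 with GC correction and block), 8 with activated platelets minus thrombin (9), 7 with activated minus resting platelets (7) and 5 in the interaction (5, with 0 under GC correction alone and 0 with no filter). The 5 interaction calls of GC correction with the block were Maf, Spi1, Irf8, Mpeg1 and Cd68, with neither Cebpa nor Cebpb. Without the block and with a library or number left out, these counts ran from 2 to 4, 0 to 0, 0 to 0, 2 to 3, 1 to 3 and 0 to 1 in that order. With the block and number 1, 2, 3 or 4 left out, an alternative chosen after seeing the data, they were 8, 9, 7 and 7, then 2, 3, 5 and 2, then 0, 0, 1 and 0, then 7, 8, 7 and 7, then 6, 7, 6 and 6, and in the interaction 4, 5, 4 and 3. Calls over all genes were not counted for these block fits, so the counts have no background.

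Over all genes, the block called 6635 with activated platelets, 3360 with resting platelets, 1285 with thrombin, 6499 and 5391 with activated platelets minus thrombin and minus resting platelets, and 4535 in the interaction, against 4031, 529, 45, 3960, 2472 and 1550 without it. GC correction with the block gave 6885, 2678, 402, 6708, 5313 and 3568. GC correction alone gave 328 with resting platelets, 14 with thrombin and 896 in the interaction. For resting platelets and thrombin, only the groups compared gave 188 and 11, and DESeq2 923 and 149. No filter gave 335 with resting platelets. With 1 library or number left out the counts ran from 2522 to 3727, 58 to 550, 4 to 27, 2422 to 3798, 972 to 2256 and 264 to 1672 in the same order. With activated platelets the block called 2 neutrophil markers higher, 1 stromal marker higher and 4 lower, and 1 monocyte marker higher and 4 lower, against 0, 0 and 1 in each direction without it. With resting platelets it called 11 platelet markers higher and 1 lower, against 8 and 0, and 3 stromal markers higher, against 0.

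Signs turned in small log2 differences, uncalled but for 1. With GC correction, without and with the block, resting platelets minus vehicle came to 0.02 and 0.01 for Spi1 (0.017371 and 0.014496) and 0.01 for Irf8 (0.014545 and 0.014256). Thrombin minus vehicle came to 0.009532 and 0.007651 for Irf8, 0.008536 and 0.009386 for Csf1r, and 0.022004 and 0.020632 for Cd68. The interaction came to -0.141943 and -0.145759 for Spi1, the second called (adjusted p = 0.0388), and to -0.002699 and -0.006197 for Csf1r. With libraries or numbers left out, differences ran across 0 for resting platelets minus vehicle in Irf8 (-0.0961 to 0.0625) and Adgre1 (-0.0639 to 0.0306). For thrombin minus vehicle they did so in Maf (-0.158 to 0.0384), Irf8 (-0.0798 to 0.0666), Cebpa (-0.0627 to 0.139), Adgre1 (-0.0526 to 0.0425), Mpeg1 (-0.0109 to 0.134) and Cd68 (-0.0636 to 0.0317). Spi1 ran from -0.149 to 0.00981 for activated platelets minus thrombin and from -0.0600 to 0.102 in the interaction. Of 1089 alternatives for single members, 965 kept direction and side of the threshold, 59 newly passed it, 19 no longer did and 46 turned sign. Of 589 for the other named genes, 495 kept both and 94 no longer passed. The cause was not tested.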
